A study of Homo sapiens with 4 samples.

Results

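Matrix metalloproteinases and their inhibitors were examined as a set of 10 genes, MMP2, MMP9, MMP14, MMP15, MMP16, MMP24, TIMP1, TIMP2, TIMP3 and RECK, out of 63568 gene identifiers counted by RNA-Seq. They were chosen by name, and each was found in the count tables by matching its symbol to the Ensembl identifier. The cells were HGC-27, a gastric carcinoma cell line, and both groups had been infected with lentivirus. One group received scrambled control shRNA and the other USP47 shRNA, which targets the deubiquitinase USP47. Infected cells were selected with puromycin as a stable population, and the study's methods use a pair of independent USP47 shRNAs without saying which of them the sequenced libraries carry. The design text of the series also mentions a DMSO vehicle for control cells, which the sample labels do not list. Each group has 2 libraries, which the design text describes as biological duplicates while the methods speak of RNA taken in triplicate, so p-values measure the spread between duplicates of a single cell line.

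Matrix metalloproteinases (MMPs) are zinc-dependent proteinases that cleave collagens, gelatin and other components of the extracellular matrix. They are made as inactive proenzymes and are held in check by the tissue inhibitors of metalloproteinases (TIMPs), which block the active site, and by RECK, an inhibitor anchored to the cell surface. MMP2 and MMP9 are the secreted gelatinases, and MMP14, MMP15, MMP16 and MMP24 are membrane-type MMPs. At the cell surface MMP14 activates the proenzyme of MMP2 with TIMP2 as a bridge, so TIMP2 serves both as an inhibitor and as a cofactor. In gastric and other carcinomas these proteinases are known for their part in invasion. The comparison addressed which of these transcripts differed when USP47 was depleted.

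Total counts were between 15649899 and 20140273 per library, and the 10 genes together took between 0.0451% and 0.0550% of them. USP47 was counted 1357 and 1297 times in control libraries and 749 and 309 times in knockdown libraries, so that 49.3% and 29.5% of the mean control level was left after normalization. The labelled cell type was checked against marker genes. The epithelial keratins KRT18 and KRT19 had at most 1 count in any library, and KRT8 had between 10 and 19. The 8 epithelial markers summed to 3.27 and 3.61 TPM (a level per length of gene and per summed level of the library) in control and 1.82 and 1.55 TPM in knockdown libraries. Of the 5 tested, 2 were called lower, EPCAM (log2 fold change -1.84, 12 and 11 against 3 and 3 counts) and CLDN7 (-1.72). CDH1 lay above 0 (0.56) and was not called. The 5 mesenchymal markers summed to between 271 and 299 TPM, and 1 of the 4 tested, FN1, was called lower (log2 fold change -1.34). Fibroblast markers, which include collagen genes that MMPs cleave, summed to between 524 and 592 TPM (7 genes), and 4 of them were called lower with USP47 shRNA. Beside these marker calls, 9.56% of all genes tested were called lower and 6.52% higher. The part of these marker differences in the results was not tested. Immune markers summed to at most 1.19 TPM and endothelial markers to at most 0.434 TPM. In such bulk libraries, fewer cells with a transcript and less transcript per cell cannot be told apart.

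Of the 10 genes, 8 had enough counts to be tested. MMP2 and TIMP3 were lower with USP47 shRNA, none was higher, and 6 did not pass the threshold, set at 0.05 for the p-value of edgeR's quasi-likelihood fit after adjustment over 21932 genes. DESeq2 called the same pair, and at an unadjusted p under 0.05 TIMP2 was higher and MMP16 lower. Among all genes tested, 16.1% were called, 9.56% lower and 6.52% higher, and the 2 of 8 called here are too few to be set apart from that share. The median log2 fold change (USP47 shRNA over control shRNA) of the 8 genes was -0.15, beside -0.0083 over all genes tested. In 4 of the 8 genes (MMP2, MMP16 and TIMP3 lower, TIMP2 higher) the groups did not overlap, but this was so for 61% of all genes tested.

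**Figure D1:**
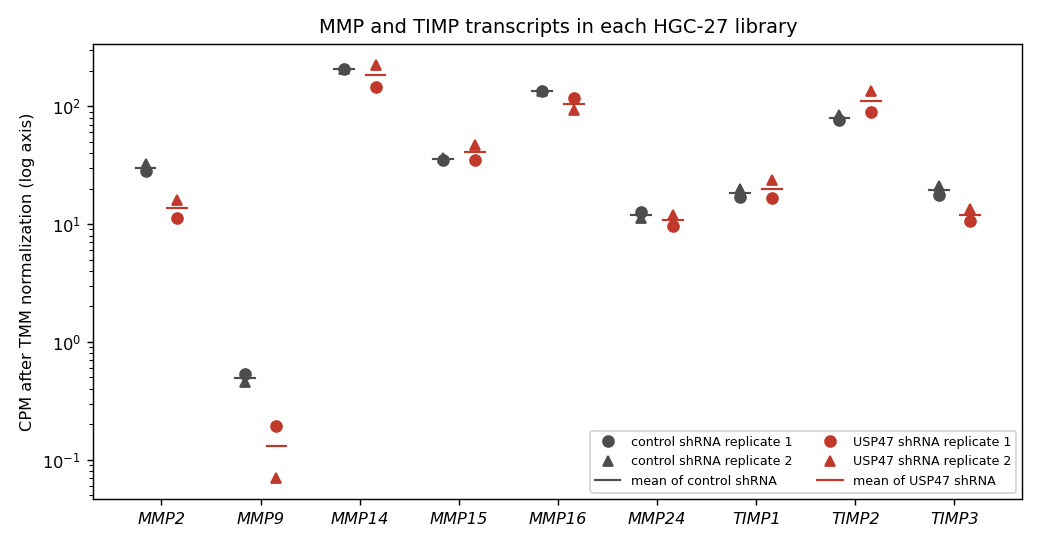
CPM (counts scaled to library size after TMM normalization, log axis) of 9 of the 10 genes in each library, with control shRNA in grey and USP47 shRNA in red, circles for replicate 1, triangles for replicate 2 and short lines for group means. RECK, with 0 counts in 2 libraries, is left out. Both knockdown values of MMP2 and of TIMP3 lie below both control values, whereas with this scaling the 2 knockdown values of MMP14 lie on either side of its control values.

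MMP2 encodes gelatinase A, the secreted proteinase that degrades denatured collagen and basement membrane collagen. It was counted 480 and 629 times in control libraries and 234 and 230 times in knockdown libraries, which came to CPM (counts scaled to TMM library size) of 28.3 and 32.1 against 11.3 and 16.02. Both knockdown libraries were well below both controls. The level was 0.448 times that of control cells, a log2 fold change of -1.16 (95% interval -1.55 to -0.76, adjusted p = 0.00326, edgeR's quasi-likelihood test). It was below 0 under all 12 alternatives, with values from -1.42 to -0.91. In those that kept all 4 libraries it was called each time, with adjusted p between 5.12e-18 and 0.00591 in edgeR or DESeq2. The gene lies on chromosome 16 of GRCh37 from 55423612 to 55540603 on the plus strand. ENSG00000279030 on the same strand shares 174 exon bases, or 3.70% of those of MMP2, and no count was matched to it here. MMP2-AS1 on the other strand shares 0 exon bases with it and had 0 counts in every library.

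MMP9 encodes gelatinase B (chromosome 20 of GRCh37, 44637547 to 44645200, plus strand). It had 9 counts in each control library and 4 and 1 in the knockdown libraries, too few to enter the test. The values correspond to 0.531 and 0.459 CPM in control cells and 0.192 and 0.0697 CPM in knockdown cells, so both knockdown libraries were lower, on a total of only a few reads. With no filter on low counts the log2 fold change was -1.77 and it was not called (adjusted p = 0.113, edgeR's quasi-likelihood test). A difference in MMP9 was thus not detected. The antisense gene SLC12A5-AS1, with 11 and 15 counts in control and 6 and 4 in knockdown libraries, covers 18.4% of the exon bases of MMP9, and reads of the pair cannot be told apart unless strand was used in counting.

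The 4 membrane-type MMPs were not called. MMP14, the activator of the MMP2 proenzyme (chromosome 14, 23305769 to 23318250, plus strand), had 205 and 209 CPM in control libraries. In the knockdown libraries it had 146 and 225 CPM, one value below and the other above both controls. This placement depends on the scaling. In the authors' TPM both knockdown values (47.3 and 54.8) were below both control values (67.0 and 59.9). Its log2 fold change was -0.16 (95% interval -0.57 to 0.26, adjusted p = 0.593). The 2 knockdown libraries decided this value, since it was 0.12 (adjusted p = 0.422) without USP47 shRNA replicate 1 and -0.50 (adjusted p = 0.000275) without USP47 shRNA replicate 2, all in edgeR's quasi-likelihood test.

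MMP16, another activator of the MMP2 proenzyme (chromosome 8, 89044239 to 89340254, minus strand), had 135 and 134 CPM in control libraries and 118 and 92.2 CPM in knockdown libraries. Both knockdown values were lower, the second more so. The log2 fold change was -0.35 (95% interval of this gene alone -0.67 to -0.029), and with adjustment over all genes it missed the threshold (adjusted p = 0.125, edgeR's quasi-likelihood test). Without USP47 shRNA replicate 1 it was -0.54, and without USP47 shRNA replicate 2 it was nearer to 0 (-0.18). The difference in MMP16 was therefore mostly that of USP47 shRNA replicate 2.

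MMP15 (chromosome 16, 58059658 to 58080805, plus strand) had 34.8 and 36.6 CPM in control libraries and 35.0 and 47.0 CPM in knockdown libraries, and the groups overlapped. Its log2 fold change was 0.20 (95% interval -0.15 to 0.54, adjusted p = 0.416, edgeR's quasi-likelihood test). It became 0.40 without USP47 shRNA replicate 1 and -0.025 without USP47 shRNA replicate 2. MMP24, a membrane-type MMP best known from the nervous system (chromosome 20, 33814493 to 33864801, plus strand), had 12.6 and 11.2 CPM against 9.71 and 12.0 CPM. Its groups overlapped too, with a log2 fold change of -0.14 (95% interval -0.51 to 0.23, adjusted p = 0.606, edgeR's quasi-likelihood test). MMP24OS on the opposite strand covers 18.4% of the exon bases of MMP24 and had more counts than it did, 330 and 395 in control and 221 and 255 in knockdown libraries, so the value of MMP24 is uncertain if strand was not used in counting.

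**Figure D2:**
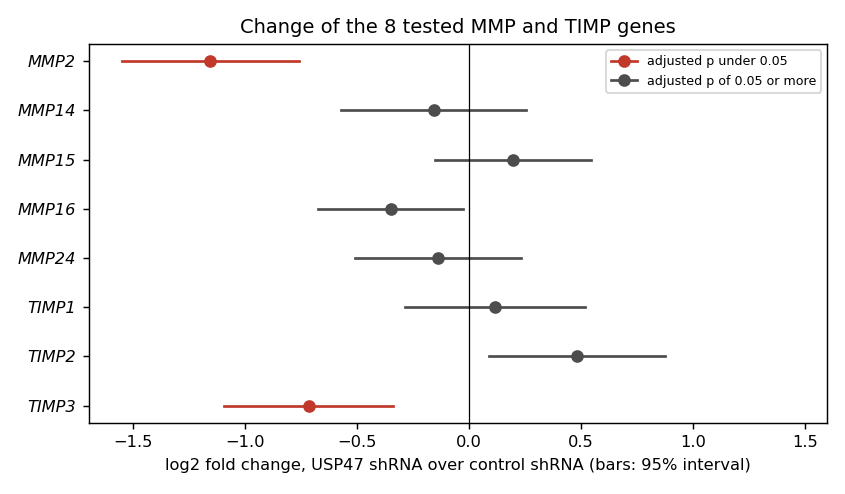
Log2 fold change of the 8 tested genes (points, USP47 shRNA over control shRNA) with 95% intervals for each gene alone (bars), red where the adjusted p was under 0.05 and grey otherwise. MMP2 at -1.16 and TIMP3 at -0.72 are red, and the intervals of MMP16 and TIMP2 leave out 0 although their adjusted p did not pass.

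Among the inhibitors, TIMP3 was lower. TIMP3 binds to the matrix and inhibits a wide range of metalloproteinases, with ADAM17 and the aggrecanases of the ADAMTS family among them. It was counted 300 and 417 times in control libraries and 219 and 191 times in knockdown libraries, that is 17.7 and 21.3 CPM against 10.5 and 13.3 CPM. Both knockdown libraries were below both controls, and the level was 0.608 times that of control cells (log2 fold change -0.72, 95% interval -1.09 to -0.34, adjusted p = 0.0194 by edgeR's quasi-likelihood test). Without control shRNA replicate 2 the log2 fold change was -0.58 and the call was lost, in a fit with 1 control library. The call was kept under the other 11 alternatives. TIMP3 (chromosome 22, 33197691 to 33259028, plus strand) lies within SYN3 on the other strand, with which it shares 0 exon bases and which had at most 14 counts.

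RefSeq promoter windows (GRCh38.p14, 250 bases before to 50 after the start of the gene) were matched for 6 of the 10 genes, and not for MMP2, MMP9, MMP16 and TIMP2. The window of TIMP3 is printed since it belongs to a called gene, and that of TIMP1 for contrast, as an inhibitor whose groups overlapped. Capitals mark the GC box GGGCGG on either strand.
TIMP3, chr22:32801455-32801754, plus strand: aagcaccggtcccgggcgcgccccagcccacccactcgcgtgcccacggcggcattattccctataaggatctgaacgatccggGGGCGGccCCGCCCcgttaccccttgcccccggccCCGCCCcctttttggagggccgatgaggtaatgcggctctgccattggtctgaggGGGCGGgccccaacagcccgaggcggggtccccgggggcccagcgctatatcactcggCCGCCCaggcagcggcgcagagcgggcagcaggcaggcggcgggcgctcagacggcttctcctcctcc
TIMP1, chrX:47582186-47582485, plus strand: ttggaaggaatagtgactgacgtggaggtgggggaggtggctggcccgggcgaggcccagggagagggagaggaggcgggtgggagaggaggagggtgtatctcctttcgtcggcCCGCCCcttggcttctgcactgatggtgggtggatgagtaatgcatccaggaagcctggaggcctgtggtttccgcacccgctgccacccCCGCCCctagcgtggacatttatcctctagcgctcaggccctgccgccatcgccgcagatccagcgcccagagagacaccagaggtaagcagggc
The TIMP3 window holds 5 GC boxes and 31 CG dinucleotides in 72.7% G and C, and the TIMP1 window 2 GC boxes and 16 CG dinucleotides in 65.0%. All 6 matched windows hold a GC box, among them those of MMP15, with 5, and of MMP24 and RECK, with 3 each, so the number does not separate TIMP3 from genes that were not called. A GC box is held by 45.0% of all 35116 windows. The E-box CAGGTG, the sequence that Snai1 binds, was searched on both strands and is held by 20.6% of all windows. Among the 6 genes it was found only in MMP15, at 2 positions. The AP-1 sequence TGANTCA, held by 7.71% of all windows, was found in none of the 6. These are letter matches in a short window and say nothing about binding.

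TIMP2, the inhibitor that links MMP14 with the MMP2 proenzyme (chromosome 17, 76849059 to 76921469, minus strand), had 76.0 and 84.0 CPM in control libraries and 90.2 and 134 CPM in knockdown libraries. Both knockdown values were higher, and they differed from each other by a factor of 1.48. The log2 fold change was 0.48 (95% interval 0.090 to 0.87) and did not pass the threshold (adjusted p = 0.0896, edgeR's quasi-likelihood test). It was 0.74 without USP47 shRNA replicate 1 and 0.18 without USP47 shRNA replicate 2. Like that of MMP16, its difference in CPM was thus larger in USP47 shRNA replicate 2. In the authors' TPM the 2 knockdown libraries (23.2 and 25.7) lay closer together, both above both control libraries (19.7 and 19.1).

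TIMP1, the inducible secreted inhibitor (chromosome X, 47441807 to 47446188, plus strand, inside SYN1 on the other strand with 0 shared exon bases), had 17.1 and 19.7 CPM in control and 16.5 and 23.5 CPM in knockdown libraries. The groups overlapped, and the log2 fold change was 0.11 (95% interval -0.29 to 0.52, adjusted p = 0.706, edgeR's quasi-likelihood test). It was 0.35 without USP47 shRNA replicate 1 and -0.15 without USP47 shRNA replicate 2. RECK (chromosome 9, 36036910 to 36124452, plus strand) had 0 and 2 counts in control libraries and 1 and 0 in knockdown libraries. A count of 0 allows up to 0.177 CPM in control shRNA replicate 1 and up to 0.209 CPM in USP47 shRNA replicate 2, for counting error only, so HGC-27 cells held little or no RECK transcript in either group and no fold is given.

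The spread of several of these genes lay between the 2 knockdown libraries. In 7 of the 8 tested genes, all but MMP16, USP47 shRNA replicate 2 was higher than replicate 1, by factors of 1.23 for MMP24 to 1.55 for MMP14, whereas over all genes tested the median factor was 1.02 and 25.2% of genes reached 1.2. For MMP16 the factor was 0.780. Over all genes, the G and C content of the longest transcript moved with this difference. It was 36.4% for MMP16 and between 48.7% and 65.5% for the other 7 genes. Among those 7 the factors did not rise in step with it. TIMP3 had 48.7% and a factor of 1.26, MMP14 58.6% and 1.55, MMP24 60.4% and 1.23, and MMP15 65.5% and 1.35. Across 21203 genes, which are not independent replicates, the log2 ratio of the 2 knockdown libraries had a Spearman correlation of 0.431 with G and C content. The ratio of the 2 control libraries had one of 0.304 and the log2 fold change between groups one of 0.0490. With GC content as an offset for each library, an alternative chosen after these data were seen, MMP2 stayed at -1.16 (adjusted p = 0.000848) and TIMP3 at -0.71 (adjusted p = 0.00994), MMP16 went to -0.25 (adjusted p = 0.0850), and TIMP2 was called at 0.47 (adjusted p = 0.0342), all in edgeR's quasi-likelihood test. Whether GC content brought about the difference between the knockdown libraries was not tested.

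**Figure D3:**
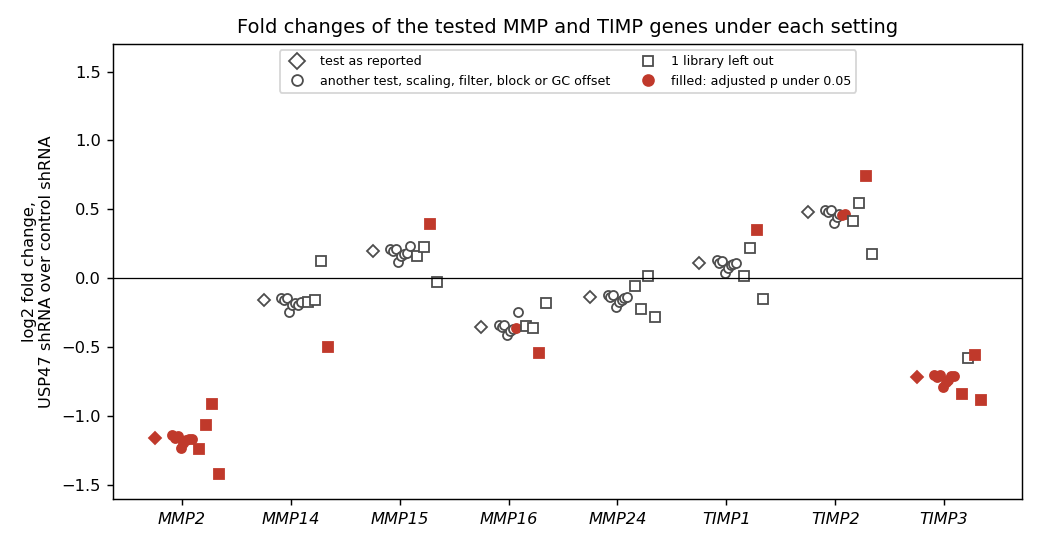
Log2 fold change (USP47 shRNA over control shRNA) of the 8 tested genes in the test as reported (diamonds), with another test, scaling, filter, replicate block or GC offset (circles), and with 1 library left out (squares), filled red where the adjusted p was under 0.05. All points of MMP2 lie between -1.42 and -0.91 and are filled, while leaving out a knockdown library moves MMP14 from -0.50 to 0.12. Squares come from fits with 1 library in a group, so their fill rests on the spread of the other group alone.

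Levels of different genes were ordered per length within each library, in the authors' TPM. MMP14 was the highest in all 4 libraries, with 67.0 and 59.9 TPM in control and 47.3 and 54.8 TPM in knockdown libraries, and TIMP2 came next in all 4, with 19.7 and 19.1 against 23.2 and 25.7 TPM. MMP16 had 16.2 and 14.2 TPM in control and 14.1 and 8.26 TPM in knockdown libraries, TIMP1 13.9 and 14.1 against 13.4 and 14.3 TPM, and MMP15 11.5 and 10.6 against 11.5 and 11.5 TPM. MMP16 thus stood above TIMP1 and MMP15 in 3 of the 4 libraries, by little in some, and below both in USP47 shRNA replicate 2. MMP2 (8.36 and 8.34 TPM) stood above TIMP3 (5.60 and 5.92 TPM) in both control libraries, and in knockdown cells the values of MMP2 (3.31 and 3.52 TPM) overlapped those of TIMP3 (3.32 and 3.14 TPM). MMP24, with 4.15 and 3.26 against 3.19 and 2.95 TPM, was below both in every library, and MMP9 (at most 0.331 TPM) and RECK (at most 0.0216 TPM) came last. Between libraries, TPM also moves with the level of all other genes. Among them is the signal recognition particle RNA gene RN7SL2, which alone accounted for 20.8% to 24.1% of TPM. A gene's TPM was therefore not used to test the groups. The share of RN7SL2 was 20.8% and 23.2% in control libraries and 22.3% and 24.1% in knockdown libraries. How much of the difference between TPM and CPM comes from RN7SL2 was not tested.

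Ratios of genes within a library do not depend on that scaling. The ratio of MMP2 to TIMP2 in TPM was 0.425 and 0.436 in control libraries and 0.143 and 0.137 in knockdown libraries, so that it was lower in both and the 2 knockdown libraries were close to each other. That of MMP14 to TIMP2 was 3.41 and 3.14 against 2.04 and 2.13. Again both knockdown libraries were below both controls, although MMP14 and TIMP2 were not called on their own. The 6 MMPs summed over the 3 TIMPs and RECK gave 2.75 and 2.46 in control and 1.99 and 1.88 in knockdown libraries. MMP14 made up between 59.5% and 67.6% of the summed MMP level, and the share of TIMP2 in the summed inhibitor level was 50.2% and 48.8% in control and 58.1% and 59.6% in knockdown libraries. These ratios were not tested. The 3 ratios of MMPs to inhibitors are not separate results, since TIMP2 is in the denominator of each. In CPM, the groups did not overlap for 61% of all single genes tested.

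**Figure D4:**
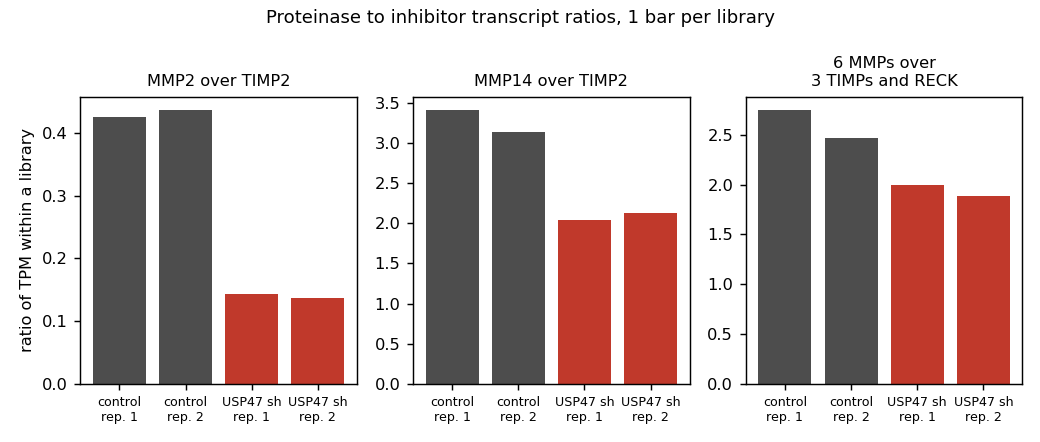
Ratios of TPM within each library (1 bar per library, axes from 0) for MMP2 over TIMP2, MMP14 over TIMP2, and the 6 MMPs over the 3 TIMPs and RECK, with control shRNA in grey and USP47 shRNA in red. All 3 ratios, which share TIMP2 in the denominator, are lower in both knockdown libraries than in both control libraries. MMP2 over TIMP2 goes from 0.425 and 0.436 to 0.143 and 0.137.

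The rest of the MMP family was hardly present. Of the 17 other MMP genes and TIMP4 (18 genes), 15 were not tested, with at most 9 counts in any library, and 12 had at most 5 counts in every library. Those include the collagenases MMP1, MMP8 and MMP13, the stromelysins MMP3 and MMP10, and matrilysin MMP7. The 3 tested genes were not called. MMP25, a membrane-type MMP known from leukocytes, had 73 counts in each control library and 113 and 57 in the knockdown libraries (log2 fold change 0.25, adjusted p = 0.457). MMP23B had 16 and 23 against 20 and 11 counts (adjusted p = 0.613) and MMP19 12 and 8 against 11 and 9 counts (adjusted p = 0.948, edgeR's quasi-likelihood test for all 3).

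Genes around the MMPs were described from lists. Of 16 genes for activation, clearance and induction of MMPs, 13 were tested, 2 were called lower and 1 higher, and the median log2 fold change was -0.28. The called genes were 23.1% of those tested, beside 16.1% of all genes (9.56% lower and 6.52% higher). PCSK5, a proprotein convertase, was lower at 17.5 and 16.9 against 10.2 and 12.5 CPM (log2 fold change -0.60, adjusted p = 0.0294), and PCSK7, of the same family, was higher at 95.9 and 88.1 against 130 and 129 CPM (0.49, adjusted p = 0.0256). The third was CLDN1, a claudin that can recruit membrane-type MMPs, with 12 and 17 counts against 4 and 2 (log2 fold change -2.17, adjusted p = 0.0180). These calls, from edgeR's quasi-likelihood test, did not extend to FURIN, the convertase that cleaves the proenzyme of membrane-type MMPs (log2 fold change -0.30, adjusted p = 0.177), or to BSG, a surface inducer of MMPs (0.54, adjusted p = 0.0598). The direction of the calls depended on the test, since DESeq2 called 2 higher and 0 lower, and scaling by library size alone called 0 higher and 2 lower. Leaving out 1 library leaves 1 library in a group. The number of calls then moved both in this list and over all genes, and the range of the list's counts is given with the other alternatives below.

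The ADAM and ADAMTS proteinases, metalloproteinases that TIMP3 inhibits in part, had 22 of 28 genes tested, of which 5 were called lower and none higher, and the median of the log2 fold changes was -0.48. The called genes were 22.7% of those tested, whereas 16.1% of all genes were called and 9.56% were called lower. ADAM19, a membrane-bound shedding proteinase, had 49 and 61 counts in control libraries and 7 in each knockdown library (log2 fold change -2.89, adjusted p = 0.000771). ADAMTS7 went from 6.78 and 7.49 to 1.92 and 3.41 CPM (-1.46, adjusted p = 0.00520), and ADAMTS5, an aggrecanase, from 12.2 and 12.4 to 4.71 and 6.62 CPM (-1.14, adjusted p = 0.00452, edgeR's quasi-likelihood test). In all 3 genes, picked for the smallest p-values among the 5 called lower, both knockdown libraries lay below both controls. The groups did not overlap for 61% of all genes tested. ADAM17, the main target of TIMP3 among the sheddases, was not called (log2 fold change 0.29, adjusted p = 0.167). Genes called higher appeared under some alternatives, with 1 higher and 7 lower with the GC offset. Calls over all genes rose with that offset too, from 3527 to 5254. Higher calls also appeared with either knockdown library left out, which leaves 1 library in that group.

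Among 22 matrix genes that MMPs act on, 18 were tested, 5 were called lower and 1 higher. That is 33.3% called, beside 16.1% of all genes (9.56% lower and 6.52% higher). LAMA1, FN1 and HSPG2, which encode a laminin chain, fibronectin and perlecan, had log2 fold changes of -2.36, -1.34 and -0.80. COL5A1, a fibrillar collagen chain, was the one called higher, from 280 and 289 to 471 and 580 CPM (log2 fold change 0.88, adjusted p = 0.00478 by edgeR's quasi-likelihood test). The type IV collagen genes COL4A1 and COL4A2, substrates of the gelatinases, had at most 9 counts in any library and were not tested. The median of the list was -0.10. The balance of higher and lower calls changed when 1 library was left out, which leaves 1 library in a group.

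Of 21 transcription factors known to act on MMP promoters, all were tested, 8 were called higher, 1 was called lower and 12 were not called (median log2 fold change 0.19). The called genes were 42.9% of the list, beside 16.1% of all genes tested, of which 6.52% were higher and 9.56% lower. The AP-1 genes FOSB, FOS and JUN had log2 fold changes of 2.73, 2.55 and 1.97, and ETS1, of the ETS family, had one of -0.61 (adjusted p = 0.0169, edgeR's quasi-likelihood test). SNAI1, which encodes the zinc finger repressor Snail, had 199 and 309 counts in control and 266 and 263 in knockdown libraries and was not called (log2 fold change 0.17, adjusted p = 0.612). The number of calls moved with 1 library left out, which leaves 1 library in a group, as it did over all genes.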

How the data were processed

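Polyadenylated RNA of 4 HGC-27 cultures was sequenced. The labels and the methods name different library kits. The authors trimmed reads, used STAR 2.7.5c for alignment (build hg19), discarded duplicate and poor alignments (SAMtools 1.9 and Picard 2.23.3 are named in the submitters' processing notes) and counted reads per gene with featureCounts. The annotation and the use of strand in counting were not given in the sources used here. Removing duplicates without molecular identifiers lowers high counts most. The deposited tables hold raw counts, FPKM and TPM for each gene. The authors' TPM was used for levels within a library and their FPKM as its alternative.

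Counts were tested with edgeR 4.0.16 in R 4.3.3 (filterByExpr, TMM, robust quasi-likelihood fit, Benjamini-Hochberg over 21932 genes), and the steps were tested on simulated data with known changes. CPM values use the TMM library sizes. Alternatives were DESeq2 1.42.0, other scalings and filters, each library left out, a replicate block and a GC offset, the last added after seeing the data, as was the GC box. Gene symbols, positions and exon overlaps came from GENCODE lifted to GRCh37 and the gene name table. The genes, lists and tests were chosen with earlier results of these data known. The text names the 10 genes, USP47, genes that overlap them, up to 3 called genes per direction and list with the smallest p-values, the other MMPs with the highest levels and the 3 genes nearest to MMP2, and a few further genes (FURIN, BSG, ADAM17, SNAI1, COL4A1 and COL4A2, among others) were named for their known role after their values were seen.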

Additional observations from a re-analysis of the deposited data

How the results depend on the processing

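Of 96 alternative values of the 8 tested genes, 83 kept their direction and their side of the threshold, 8 newly passed it, 1 (TIMP3 without control shRNA replicate 2) no longer did, and 4 changed sign. The last came with 1 knockdown library left out, where log2 fold changes reached from -0.50 to 0.12 for MMP14, -0.025 to 0.40 for MMP15, -0.28 to 0.015 for MMP24 and -0.15 to 0.35 for TIMP1, and the cause was not tested. The 2 calls among these genes stayed 2 with DESeq2, other scalings and other filters, became 3 with the GC offset, and were between 1 and 6 with 1 library left out. Over all genes 3527 were called (1430 higher), 2800 by library size alone (881 higher, median log2 fold change -0.072), 5254 with the GC offset (2720 higher), and between 1284 and 7455 with 1 library left out. With 1 library left out, the list counts were between 0 and 7 for activation of MMPs, 3 and 11 for ADAM and ADAMTS genes, 4 and 10 for substrates and 5 and 14 for transcription factors, and with the GC offset the ADAM and ADAMTS list had 8. No source says whether same-numbered libraries share a batch. Their deviations correlated at 0.325, and whether they are paired is not known. With the replicate number as a block, 7422 genes were called, with 4 among the MMP and TIMP genes (MMP16 and TIMP2 in addition), 7 in the activation list and 12 in the ADAM and ADAMTS list. The low counts of MMP9 and RECK limit what can be said of them.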

Other observations

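The tested genes whose pattern over the 4 libraries was nearest to that of MMP2, by Euclidean distance of centred log2(CPM + 1), were RGMA (0.0490), RTL8C (0.0632) and ADM2 (0.0705), and 69 genes lay within 0.2. With 4 libraries in 2 groups, such a likeness is mostly that of the difference between groups.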
